A study of Homo sapiens with 9 samples.

Results

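The cytosolic HSP70 family was followed over 3 culture conditions of the prostate cancer line LNCaP, through every array probe set of 9 listed genes: HSPA1A, HSPA1B, HSPA1L, HSPA2, HSPA4, HSPA4L, HSPA6, HSPA8 and HSPH1. All 9 genes were represented, by 17 of the 22215 probe sets on the array, and 1 of these 17 is annotated to both HSPA1A and HSPA1B. LNCaP is an established human line whose growth responds to androgen. Every culture was first starved of steroid hormones for 2 days in RPMI with charcoal-stripped serum. The vehicle group then received ethanol and DMSO. The androgen group received 1 nM R1881, a synthetic androgen that cells do not metabolise, with DMSO. The third group received 1 nM R1881 together with 1.25 µM celastrol, a plant triterpenoid, and its arrays are called the celastrol arrays here. Each group has 3 arrays labelled as biological replicates, and p-values measure the spread between these cultures only. Treatment lasted 24 h by the labels of the vehicle and celastrol arrays, but for the androgen arrays the titles say 6 h and the descriptions 24 h. This unsettled time touches both comparisons that use the androgen arrays, and not that of celastrol arrays with vehicle. No culture received celastrol without androgen among the samples analysed here.

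HSP70 proteins hold unfolded stretches of other proteins and release them in a cycle driven by ATP. J-domain partners (DNAJ proteins) bring clients and start ATP hydrolysis, and exchange factors of the HSP110 and BAG families eject ADP so that the client is freed. HSPA8 (HSC70) is the constitutive housekeeping form, HSPA1A, HSPA1B and HSPA6 are the forms that heat shock factor 1 (HSF1) induces under stress, and HSPA1L and HSPA2 are best known from testis. HSPA4, HSPA4L and HSPH1 are HSP110 proteins, distant relatives that serve as exchange factors. HSP70 hands steroid receptors on to HSP90 for folding, and celastrol is known from other work to activate HSF1 and to disturb HSP90.

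HSPA8 fell by 28.1% with celastrol, relative to androgen, on its brightest probe set, was lower on its other 2 as well, and had no call with androgen alone. HSPA1L was 2.05-fold lower with androgen than with vehicle and 1.555-fold higher with celastrol than with androgen. HSPA4L was 2.46-fold lower with androgen and was also below vehicle when celastrol was added (2.22-fold). The stress-inducible HSPA1A, HSPA1B and HSPA6 passed in no comparison. Fold changes come from a limma fit of log2 intensity over all 9 arrays and are given as log2 values with the standard error, and the adjusted p is by Benjamini and Hochberg over all 22215 probe sets with a threshold of 0.05. In a bulk culture, less RNA per cell and fewer expressing cells cannot be told apart.

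**Figure D1:**
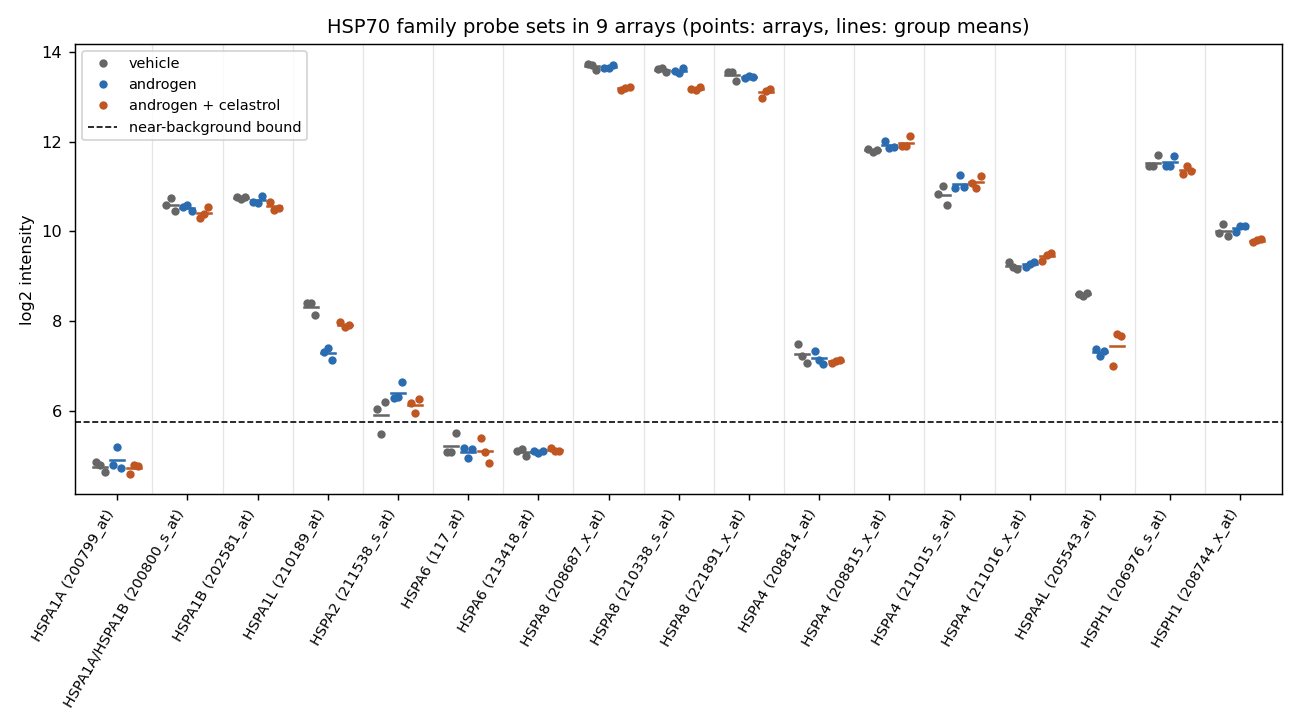
Log2 intensity (vertical axis) of each of the 17 probe sets (horizontal axis) on 9 arrays. Points are arrays, short lines are means of 3, and the dashed line marks the near-background bound of 5.73. The 3 probe sets at or under the line are that of HSPA1A alone and both of HSPA6.

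Median intensities of the arrays were 72.2 to 80.2, with correlations of 0.973 to 0.997 within groups. The upper quartile of intensity was 332 on vehicle array 3 and 377 to 409 on the others. Vehicle array 3 stood apart, with a standard deviation of 0.31 (log2) around its group means against 0.12 to 0.21 on the others. All 11 calls made on member probe sets held without it. The 6 LNCaP markers measured all lay above background, with KLK3 at a mean log2 intensity of 12.75 and KRT18 at 13.04. Of 10 measured markers of other prostate cells (basal, stromal, endothelial and immune), 7 were near background (KRT5, KRT14, DCN, DES, PECAM1, PTPRC and CD68). COL1A1, ACTA2 and VWF were above it. VWF, an endothelial gene, was lower with androgen than with vehicle by -1.13 ± 0.14 (limma, adjusted p = 0.000860), as were HSPA1L and HSPA4L. ACTA2, a smooth muscle actin, was higher with androgen by 0.66 ± 0.15 (adjusted p = 0.0216) and lower with celastrol than with androgen by -0.76 ± 0.15 (adjusted p = 0.0101). The mean log2 level of these 10 was 5.68 to 6.07 on vehicle arrays, 5.51 to 5.82 on androgen arrays and 5.52 to 5.57 on celastrol arrays, highest on vehicle array 3. Their part in the results was not tested.

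The background level was set from 42 probe sets of 26 genes restricted to other organs, such as insulin and rhodopsin. A probe set was taken as near background when its mean log2 intensity over the 9 arrays was at most their 90th percentile, 5.73. By this rule 41.8% of all probe sets were near background. Among the members these were the HSPA1A probe set 200799_at (mean 4.78) and both HSPA6 probe sets, 117_at (5.13) and 213418_at (5.09), 3 of 17. HSPA2 lay just above the bound at 6.14 and would fall under it if the median of all probe sets, 6.23, were used. The other 13 probe sets had means from 7.17 (HSPA4, 208814_at) to 13.52 (HSPA8, 208687_x_at). Levels of different probe sets depend on their probes and are not ranked against each other.

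The stress-inducible pair HSPA1A and HSPA1B are near-identical neighbours, and the array reads them through 3 probe sets that disagree in level. The probe set annotated to HSPA1A alone, 200799_at, was at 4.84, 4.77 and 4.62 (log2 intensity) on vehicle arrays, 4.79, 5.18 and 4.71 with androgen and 4.58, 4.79 and 4.76 with celastrol. These values lie among those of the organ-restricted genes in every group. The probe set annotated to both genes, 200800_s_at, read 10.59, 10.75 and 10.46 with vehicle, 10.55, 10.59 and 10.45 with androgen and 10.31, 10.40 and 10.54 with celastrol. The 3 groups overlapped, and the difference between celastrol and androgen was -0.11 ± 0.10 (adjusted p = 0.603). The probe set annotated to HSPA1B, 202581_at, read 10.77, 10.72 and 10.77 with vehicle, 10.67, 10.65 and 10.79 with androgen and 10.67, 10.48 and 10.53 with celastrol. Celastrol differed from androgen by -0.14 ± 0.08 (adjusted p = 0.383), with a 95% interval of the fold from 0.795 to 1.035. Against vehicle the combined treatment was at -0.20 ± 0.08 (adjusted p = 0.145), a difference that passed only under quantile normalization (adjusted p = 0.0320). For the shared probe set the interval of the celastrol fold ran from 0.784 to 1.09, and neither interval reached a rise of more than 1.09-fold. Since probes of one gene can bind RNA of the other, the split between the 2 genes is uncertain.

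HSPA6, a strictly stress-induced form, was near background in every group. Its probe set 117_at ranged from 4.83 to 5.50 and 213418_at from 4.99 to 5.16 over the 9 arrays, with no call in any comparison. With celastrol 213418_at read 5.16, 5.10 and 5.10, and vehicle arrays read 5.10, 5.15 and 4.99. Neither probe set exceeded the near-background bound on any array.

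HSPA1A and HSPA1L are divergent genes that share a promoter region on chromosome 6, and HSPA1B follows as the next coding gene. Their upstream sequences are shown because the genes lie side by side, and HSPA1L had calls while HSPA1A and HSPA1B had none. Whether their responses differ was not tested, and the probe set of HSPA1A alone was near background. The stretches lie before the annotated starts, so their likeness does not bear on what the probe sets read. Each is the 250 bases before the annotated start, from RefSeq on GRCh38.p14: HSPA1A at chr6:31815293-31815542 (plus strand), HSPA1B at chr6:31827488-31827737 (plus) and HSPA1L at chr6:31815284-31815533 (minus). Capitals mark a heat shock element searched as 2 inverted units, GAANNTTC or TTCNNGAA, each of which reads the same on both strands.
HSPA1A: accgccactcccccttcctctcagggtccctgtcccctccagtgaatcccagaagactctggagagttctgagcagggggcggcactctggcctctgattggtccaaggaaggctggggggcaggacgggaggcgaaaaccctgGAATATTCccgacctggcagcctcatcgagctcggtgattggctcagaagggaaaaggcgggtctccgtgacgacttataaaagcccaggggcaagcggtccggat
HSPA1B: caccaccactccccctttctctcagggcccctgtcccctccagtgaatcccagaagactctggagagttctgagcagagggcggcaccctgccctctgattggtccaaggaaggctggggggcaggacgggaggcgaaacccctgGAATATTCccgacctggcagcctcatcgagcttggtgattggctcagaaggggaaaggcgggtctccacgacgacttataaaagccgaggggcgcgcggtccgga
HSPA1L: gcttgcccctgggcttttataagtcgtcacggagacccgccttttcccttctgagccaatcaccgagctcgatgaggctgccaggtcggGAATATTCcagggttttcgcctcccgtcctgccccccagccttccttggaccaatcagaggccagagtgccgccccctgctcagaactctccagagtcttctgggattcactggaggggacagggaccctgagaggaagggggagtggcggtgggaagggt
The HSPA1A and HSPA1B stretches were identical at 235 of 251 aligned positions (93.6%). The annotated starts of HSPA1L and HSPA1A are 260 bases apart, and their windows overlap by 241 bases, so that the 1 marked element, at chr6:31815437-31815444, is the same DNA in both. It begins 106 bases upstream of HSPA1A and 161 bases upstream of HSPA1L.

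HSPA1L, the neighbour read from the opposite strand, was the only member whose probe set moved in both steps. Probe set 210189_at read 8.41, 8.41 and 8.13 with vehicle, 7.31, 7.39 and 7.13 with androgen and 7.97, 7.87 and 7.90 with celastrol. The 3 groups did not overlap: vehicle was highest, androgen lowest and celastrol between them. Mean intensity was 320 ± 34.5 (SD, n = 3) with vehicle, 156 ± 14.1 with androgen and 241 ± 8.73 with celastrol. HSPA1L was lower by -1.04 ± 0.11 with androgen (limma, adjusted p = 0.000295) and higher by 0.64 ± 0.11 with celastrol than with androgen (adjusted p = 0.00506). Both calls held in all 19 alternative settings, including each array left out in turn. The combined treatment remained below vehicle, at -0.40 ± 0.11 (adjusted p = 0.0304), but this call was lost in 8 of 19 settings. It was lost on leaving out vehicle replicate 1 or 2, androgen replicate 1 or any 1 celastrol array (adjusted p = 0.0525 to 0.100), with median centring (0.0580) and with the 6 arrays compared alone (0.0622). The first 2 comparisons share the androgen arrays, so their values are not independent of each other.

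**Figure D2:**
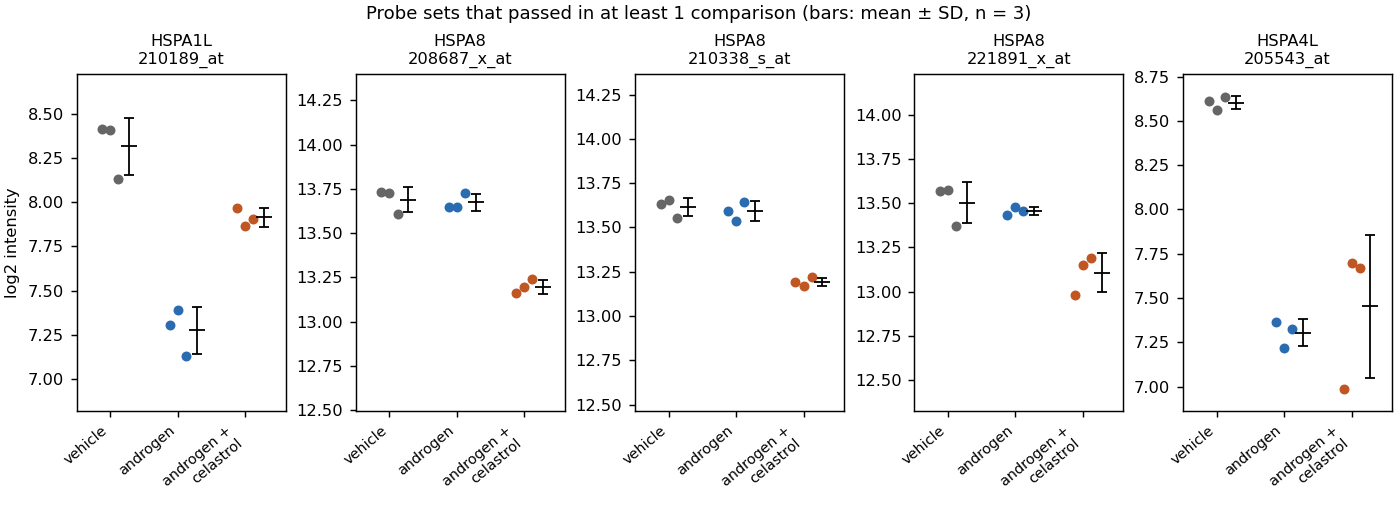
Log2 intensity (vertical axes, all spanning the same range) by group for the 5 probe sets that passed in at least 1 comparison. Points are arrays and black bars are the mean ± SD (n = 3). The 3 HSPA8 panels drop only with celastrol, HSPA1L drops with androgen and lies between with celastrol, and HSPA4L drops with androgen.

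HSPA8 is the abundant constitutive HSP70, which also strips clathrin from vesicles. Its 3 probe sets lay between the 98.9th and 99.7th percentile of all probe sets over the 9 arrays. Probe set 208687_x_at read 13.73, 13.73 and 13.61 with vehicle, 13.65, 13.65 and 13.73 with androgen and 13.16, 13.20 and 13.24 with celastrol. Vehicle and androgen arrays overlapped, and every celastrol array lay below all 6 of them. Mean intensity was 13213 ± 637 (SD, n = 3) with vehicle, 13069 ± 441 with androgen and 9400 ± 257 with celastrol. Celastrol was lower than androgen by -0.48 ± 0.08 (adjusted p = 0.00412) and lower than vehicle by -0.49 ± 0.08 (adjusted p = 0.00212). Androgen against vehicle was at -0.02 ± 0.08 (adjusted p = 0.948), with a 95% interval of the fold from 0.8765 to 1.117.

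The other 2 HSPA8 probe sets read the same order. Probe set 210338_s_at was at 13.63, 13.66 and 13.56 with vehicle, 13.59, 13.53 and 13.65 with androgen and 13.19, 13.17 and 13.22 with celastrol. It was lower with celastrol than with androgen by -0.40 ± 0.07 (adjusted p = 0.00857) and than with vehicle by -0.42 ± 0.07 (adjusted p = 0.00406). Both 208687_x_at and 210338_s_at kept these calls in every setting tried on them. Probe set 221891_x_at read 13.57, 13.57 and 13.37 with vehicle, 13.43, 13.48 and 13.46 with androgen and 12.98, 13.15 and 13.19 with celastrol. Its difference from androgen, -0.35 ± 0.09 (adjusted p = 0.0398), lost its call on leaving out any array but vehicle replicate 3, with adjusted p from 0.0533 to 0.1285, and with the replicate number as a block (0.0786). Its difference from vehicle, -0.40 ± 0.09 (adjusted p = 0.0162), lost its call without vehicle replicate 1 (0.0603) or 2 (0.0524) and with the 6 arrays compared alone (0.0595). The 3 probe sets describe 1 gene and are not separate evidence. RefSeq names 20 HSPA8 pseudogenes, whose transcripts could share probes with it, and whether they did was not tested.

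The upstream stretch of HSPA8 is shown because HSPA8 is the member that fell with celastrol, and it can be set beside the stretches of HSPA1A, HSPA1B and HSPA1L above. It is the 250 bases before the RefSeq start on GRCh38.p14, chr11:123062137-123062386 on the minus strand, with the same motif in capitals.
HSPA8: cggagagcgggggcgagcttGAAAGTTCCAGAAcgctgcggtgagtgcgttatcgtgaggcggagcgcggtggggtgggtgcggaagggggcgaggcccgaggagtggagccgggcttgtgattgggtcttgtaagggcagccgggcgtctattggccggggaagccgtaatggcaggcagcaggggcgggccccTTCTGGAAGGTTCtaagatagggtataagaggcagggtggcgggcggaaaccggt
The HSPA8 stretch holds 2 blocks of 3 alternating units, beginning 230 and 55 bases upstream of the start. Over all 35116 RefSeq windows of this length, 11.6% held the 2-unit form and 0.441% the 3-unit form. Of the 11 windows of the 9 member genes, 6 held the first (HSPA1A, HSPA1B, HSPA1L, 1 of 3 for HSPA4L, HSPA6 and HSPA8) and 2 the second (HSPA6 and HSPA8). TATAAA or TTTATA occurred in 10.7% of all windows and in 4 of these 11, and CCAAT or ATTGG in 32.0% and in 6 of these 11. The matches of HSPA1A and HSPA1L are the same DNA counted for both genes, so the member windows are not independent. With celastrol relative to androgen, the 6 members with the 2-unit form included HSPA8, which fell, HSPA1L, which rose, and 4 without a call. A match is a description of the letters and not evidence of binding.

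**Figure D3:**
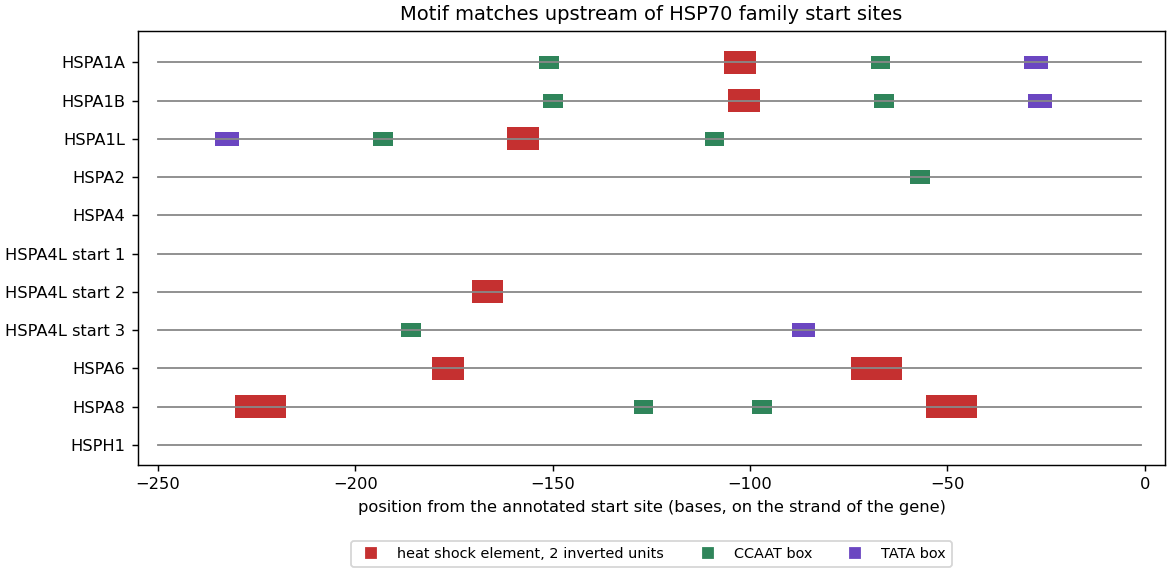
Motif matches in the 250 bases upstream of each annotated start (horizontal axis, bases from the start on the strand of the gene; 1 row per start, 3 for HSPA4L). Red marks the 2-unit heat shock element, with overlapping matches forming wider blocks in HSPA6 and HSPA8, green the CCAAT box and purple the TATA box. HSPA4, HSPH1 and the first HSPA4L start hold none of them.

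HSPA2, a chaperone required for sperm formation, gave weak signal. Probe set 211538_s_at read 6.04, 5.47 and 6.20 with vehicle, 6.27, 6.30 and 6.63 with androgen and 6.18, 5.94 and 6.25 with celastrol. All androgen arrays lay above all vehicle arrays, yet the difference of 0.50 ± 0.19 did not pass (adjusted p = 0.172). All celastrol arrays lay below all androgen arrays, at -0.28 ± 0.19 (adjusted p = 0.470).

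Of the HSP110 exchange factors, HSPA4L changed. Probe set 205543_at read 8.61, 8.56 and 8.64 with vehicle, 7.37, 7.22 and 7.33 with androgen and 6.99, 7.70 and 7.67 with celastrol. Both treated groups lay wholly below vehicle and overlapped each other. Mean intensity was 389 ± 10.2 (SD, n = 3) with vehicle, 158 ± 8.28 with androgen and 179 ± 45.5 with celastrol. HSPA4L was lower by -1.30 ± 0.17 with androgen (limma, adjusted p = 0.00131) and by -1.15 ± 0.17 with the combined treatment (adjusted p = 0.00170), both relative to vehicle, and these calls held in all 19 settings. Celastrol against androgen was at 0.15 ± 0.17 (adjusted p = 0.698), with an interval of the fold from 0.844 to 1.46. That value rests on celastrol replicate 1: without it, the difference was 0.38 and passed (adjusted p = 0.0287).

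HSPH1 (HSP105) had 2 probe sets, neither of which passed. Probe set 206976_s_at read 11.47, 11.45 and 11.70 with vehicle, 11.47, 11.47 and 11.69 with androgen and 11.28, 11.46 and 11.34 with celastrol. Probe set 208744_x_at read 9.98, 10.17 and 9.91 with vehicle, 9.98, 10.12 and 10.12 with androgen and 9.77, 9.80 and 9.82 with celastrol. On 206976_s_at the highest celastrol array, at 11.4634, lay only just below the lowest androgen array, at 11.4662. On 208744_x_at every celastrol array lay below every androgen array. How many of all probe sets separate in this way was not counted. The differences from androgen were -0.18 ± 0.11 (adjusted p = 0.380) and -0.28 ± 0.09 (adjusted p = 0.0927). The second passed in 4 of 17 settings, those with quantile or cyclic loess normalization, dim probe sets left out or a trend in the prior (adjusted p = 0.03575 to 0.04946).

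HSPA4 (APG-2) had 4 probe sets and no call in any comparison. Their values over the 9 arrays ranged from 7.05 to 7.50 (208814_at), 11.78 to 12.13 (208815_x_at), 10.59 to 11.25 (211015_s_at) and 9.16 to 9.51 (211016_x_at). The differences between celastrol and androgen ran from -0.07 ± 0.13 (208814_at) to 0.18 ± 0.09 (211016_x_at, adjusted p = 0.241). Against vehicle, 211016_x_at was at 0.22 ± 0.09 (adjusted p = 0.117) and passed only when dim probe sets were left out (adjusted p = 0.0482). Probe set 208814_at pointed down against vehicle at -0.16 ± 0.13, while the other 3 pointed up, and none of these 4 differences passed.

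**Figure D4:**
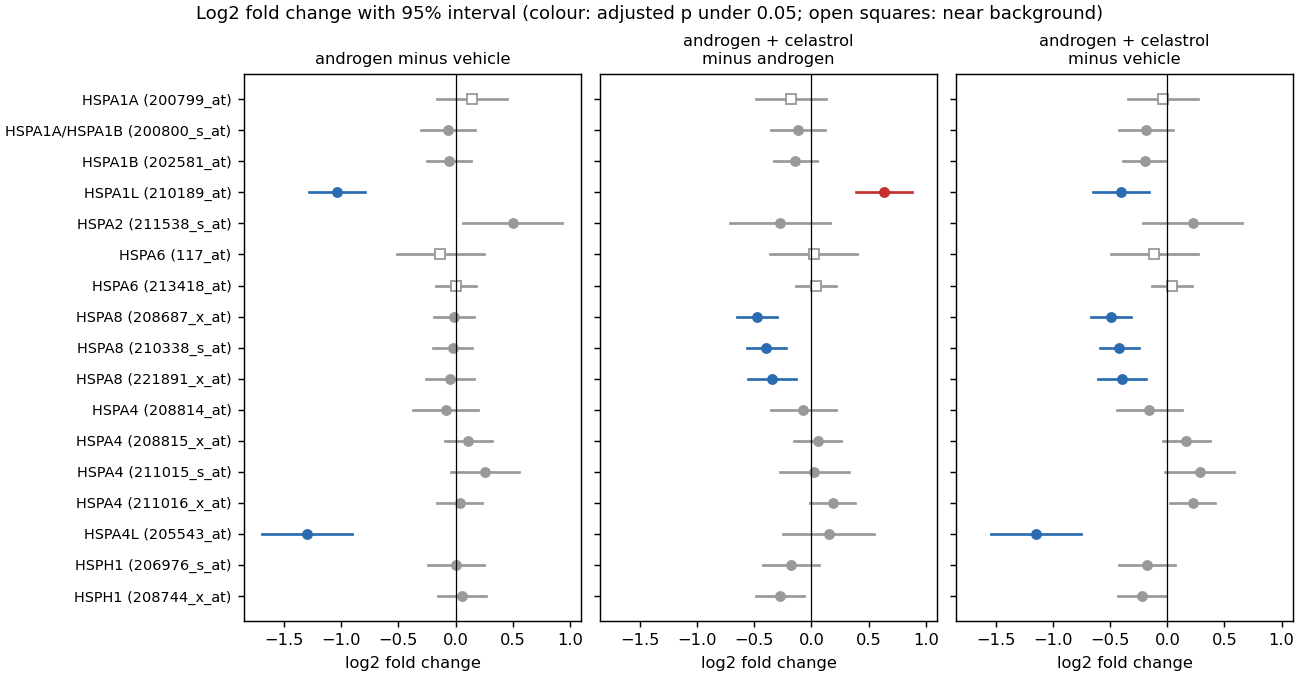
Log2 fold change (horizontal axes) of the 17 probe sets in the 3 comparisons, with 95% intervals of the limma fit. Blue is lower and red higher at an adjusted p under 0.05, grey did not pass, and open squares are near background. Androgen moves HSPA1L and HSPA4L downwards, and celastrol against androgen moves the 3 HSPA8 probe sets downwards and HSPA1L upwards.

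Counted over all member probe sets, androgen against vehicle called none of 17 higher, where 6.04% of all probe sets were, and 2 lower, where 4.47% were. At an unadjusted limma threshold of 0.05, 1 of the 17 (HSPA2) was higher, beside 10.5% of all probe sets. Androgen plus celastrol against androgen called 1 higher (6.91% of all probe sets) and 3 lower (5.66%), the 3 of HSPA8. Androgen plus celastrol against vehicle called none higher (11.1%) and 5 lower (7.94%), namely HSPA1L, HSPA4L and the 3 of HSPA8. At the unadjusted threshold 1 probe set (HSPA4, 211016_x_at) was higher, beside 16.7% of all probe sets, and 7 were lower, beside 13.9%, the other two being those of HSPA1B (202581_at) and HSPH1 (208744_x_at). The median log2 difference of the 17 was -0.02, -0.11 and -0.18 in these 3 comparisons, beside -0.04, 0.02 and -0.01 over all probe sets. The last comparison shares its arrays with the first 2 and adds no independent count.

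The partner genes of HSP70 were described from a list of 28, of which 26 were measured, each through its brightest probe set. Androgen called none higher and DNAJB4 lower, beside 6.71% and 5.35% of 12165 genes called higher and lower. At the unadjusted limma threshold 2 of 26 were higher, beside 11.6% of all genes, namely BAG3 and BAG5, named here after their values were seen. The list median was 0.07, against -0.04 over all genes. Celastrol against androgen called 4 higher and 2 lower, beside 8.13% and 6.6% of all genes, with a list median of 0.01 and 0.02 over all genes. The small heat shock protein CRYAB rose by 3.43 ± 0.12, the J-domain protein DNAJB4 by 1.52 ± 0.09, and the exchange factors BAG2 by 0.96 ± 0.18 and BAG1 by 0.63 ± 0.14. DNAJB1, the main stress-induced J-domain partner, changed by -0.55 ± 0.08 (adjusted p = 0.00314) on its brightest probe set. Its other probe set was at -0.155 and did not pass (adjusted p = 0.294), and the average of both was at -0.35 (adjusted p = 0.00985). DNAJA1 changed by -0.35 ± 0.09 (adjusted p = 0.0417). The DNAJA1 call was lost in 10 of 19 settings, with adjusted p up to 0.1535 and a value of -0.21 with its probe sets averaged, and the BAG1 call (adjusted p = 0.0184) in 5 of 19, with adjusted p up to 0.0696. HSF1, at -0.05 ± 0.19, and HSP90AA1, at 0.05 ± 0.08, did not pass. The combined treatment against vehicle called 6 higher and 1 lower, beside 12.6% and 9.3% of all genes, with CRYAB at 3.39 ± 0.12 and DNAJB1 at -0.56 ± 0.08 on its brightest probe set and -0.33 with both averaged. The 6 were CRYAB, DNAJB4, BAG2, BAG1, BAG3 at 0.53 ± 0.13 (limma, adjusted p = 0.0165) and DNAJA2 at 0.48 ± 0.10 (adjusted p = 0.0107).

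**Figure D5:**
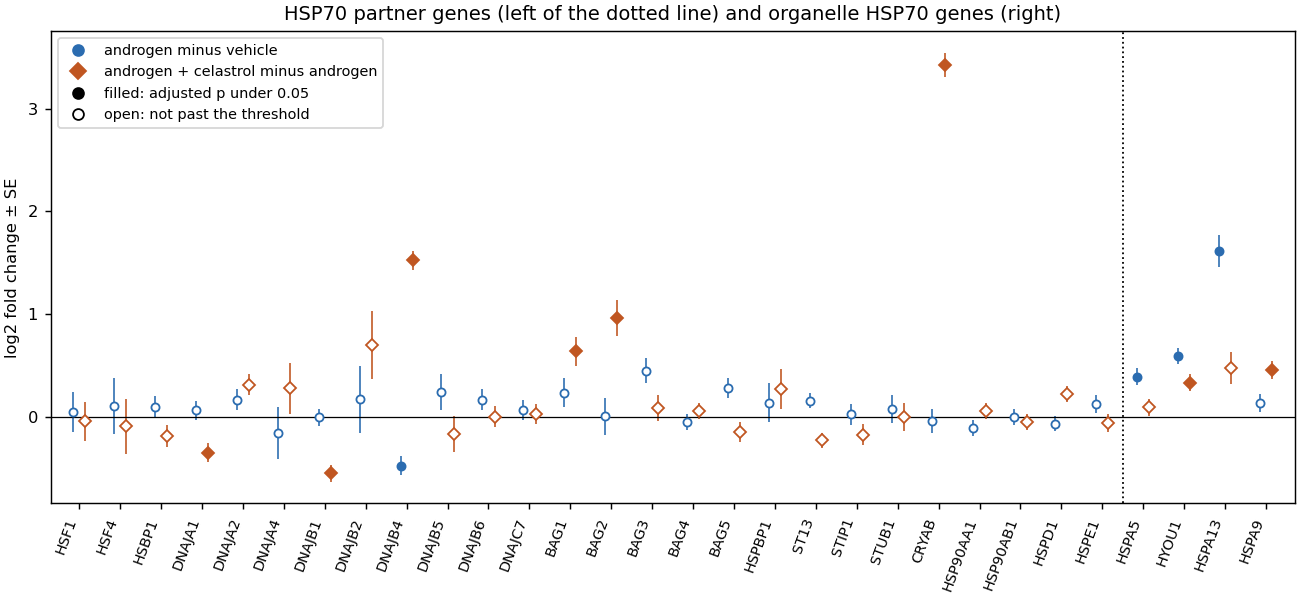
Log2 fold change ± SE (vertical axis) of 26 partner genes and 4 organelle HSP70 genes (horizontal axis), for androgen minus vehicle (circles) and androgen + celastrol minus androgen (diamonds). Filled symbols passed an adjusted p of 0.05. CRYAB and DNAJB4 stand highest with celastrol, at 3.43 and 1.52, and HSPA13 highest with androgen, at 1.61.

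Of the HSP70 relatives inside organelles, 3 of 4 rose with androgen and 2 of 4 with celastrol over androgen, beside 6.71% and 8.13% of all genes. HSPA5 (BiP) and its exchange factor HYOU1 serve the endoplasmic reticulum, HSPA13 is a microsomal relative, and HSPA9 (mortalin) serves mitochondria. With androgen, HSPA13 rose by 1.61 ± 0.16, HYOU1 by 0.59 ± 0.08 and HSPA5 by 0.39 ± 0.08 (adjusted p = 0.0160), and HSPA9 was at 0.13 ± 0.09 without a call. The HSPA5 call was lost without vehicle replicate 1 or androgen replicate 2 or 3 (adjusted p = 0.0572 to 0.0656). With celastrol over androgen, HSPA9 rose by 0.45 ± 0.09 (adjusted p = 0.0101) and HYOU1 by 0.33 ± 0.08 (adjusted p = 0.02735, lost in 9 of 19 settings). HSPA13, at 0.47 ± 0.16 (adjusted p = 0.0904), passed in 6 of 19 settings. Its other probe set was at 1.48 (adjusted p = 0.000211), and the average of both at 0.98 (adjusted p = 0.000103). All 4 were called above vehicle under the combined treatment, beside 12.6% of all genes, while HSPA8 was below it. The difference between the cytosolic and organelle genes was not tested.

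The genes whose log2 values over the 9 arrays correlated best with those of HSPA8 (208687_x_at) were FSTL1 (r = 0.990), the chaperonin subunit CCT2 (0.990), the RNA helicase DDX39B (0.988) and DNAJB1 (0.988). For HSPA1L they were CRAT (r = 0.9885), ST7 (0.988), CDR2L (0.986) and VPS54 (0.985). These are descriptions over arrays that share 3 conditions, and 298 genes exceeded r = 0.9 with HSPA8 and 139 with HSPA1L.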

How the data were processed

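RNA from 9 cultures was read as biotinylated cRNA on Affymetrix arrays, per the labels' protocols. The deposited table holds linear intensities, and the submitters' processing notes name RMA, with no version or probe definition stated. RMA is meant to even out array-wide differences, though the upper quartiles given above still differed, and it compresses dim signals. Here log2 was taken with a pseudocount of 0 and no filter. Groups came from the titles. Limma 3.58.1 in R 4.3.3 was fitted to 22215 probe sets and 9 arrays (lmFit, eBayes, 6 residual and 2.8 prior degrees of freedom) with Benjamini-Hochberg adjustment over all probe sets. A trial run used simulated data with independent noise and no array or replicate effects, so it does not test the fit against such effects. The number of arrays limits the precision. Of the probe sets, 19724 have 1 gene symbol, 568 several and 1923 none. Motifs were searched in unaligned RefSeq windows, and the HSPA1A and HSPA1B stretches were aligned with Biopython 1.88.

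All member probe sets are named. Partner genes are named where their brightest probe set passed (up to 4 per comparison and direction, by size, and 2 that did not pass), with all organelle HSP70 genes and the 4 genes most alike to HSPA8 and to HSPA1L. BAG3, BAG5 and DNAJA2 are named beyond this rule, after their values were seen. Members and lists were chosen with earlier results of these data known. HSF2 and HSPB1 were not analysed here. The 19 alternatives were an offset of 16, a filter on dim probe sets, 3 other normalizations, another variance prior, the replicate block, the compared arrays alone, 1 value per gene made in either of 2 ways, and each of 9 arrays left out. Titles number the replicates 1 to 3. Between vehicle and androgen, arrays of the same number deviated from their group means with correlations of 0.39, 0.37 and 0.63. Vehicle array 2, though, correlated more with another androgen array (0.41). The main fit has no term for the number, so its standard errors and adjusted p-values leave out any such pairing. Only the replicate block, 1 of the 19 alternatives, takes it in.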

Additional observations from a re-analysis of the deposited data

How the results depend on the processing

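Of 11 calls on member probe sets, 8 held in every setting tried, no called value changed sign, and 18 of the 51 member differences, none of them called, changed sign in some setting. With 1 brightest probe set per gene or with a gene's probe sets averaged, celastrol against androgen called 1 of 9 genes lower (7.24% and 6.54% of all genes), and the combined treatment against vehicle 3 of 9 lower (10.0% and 9.3%); the smaller counts come from HSPA8 counting once. With the 6 compared arrays alone, the combined treatment against vehicle called 3 of 17 probe sets lower (5.68% of all). With dim probe sets left out, 13 members remained, and it called 1 of them higher (24.8% of all kept). Other settings raised counts: quantile normalization called 7 of 17 lower in that comparison (10.6% of all), adding HSPA1B 202581_at (adjusted p = 0.0320) and HSPH1 208744_x_at (0.0317), and cyclic loess called 6 (10.2%). For celastrol against androgen, both of these and the variance prior with a trend called 4 of 17 lower (7.13%, 7.34% and 6.83%), and the filter 4 of 13 (14.3%). Leaving out 1 array at a time gave 3 to 5 lower for the combined treatment against vehicle (3 without vehicle replicate 1 or 2) and 1 to 2 higher for celastrol against androgen (2 without celastrol replicate 1, the second being HSPA4L).

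With the replicate block, androgen against vehicle called 0 of 17 higher and 2 lower (5.37% and 3.73% of all probe sets), celastrol against androgen 1 higher and 2 lower (6.11% and 4.68%), and the combined treatment against vehicle 0 higher and 5 lower (10.7% and 7.62%). The block ended the calls of HSPA8 221891_x_at (adjusted p = 0.0786), DNAJA1 (0.0908) and HYOU1 (0.0655) for celastrol against androgen. Deviations of same-numbered arrays correlated there at r = -0.09, 0.22 and -0.16, and between vehicle and celastrol at -0.26, 0.12 and -0.27. With 3 pairs in each comparison, these values cannot settle whether the cultures were paired. With the 3-unit heat shock element in place of the 2-unit form, 2 member genes in place of 6 held a match. Signal over background limits HSPA1A, HSPA6 and HSPA2, whose differences RMA may compress.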
